A study of Mus musculus with 14 samples.

Results

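Unventilated mouse lungs labelled PBEF+/- were compared with unventilated Control lungs. The comparison takes every array titled PBEF+/- without ventilation (3 arrays) and every array titled Control (4 arrays), which is 7 of the 14 arrays of the study. Total RNA of whole lung was hybridised to Affymetrix mouse arrays, and the other 7 arrays are ventilated lungs labelled VILI PBEF+/- (3 arrays) and VALI (4 arrays), which the labels put at 4 h of ventilation. The PBEF+/- animals are labelled as 18 to 22 weeks old with no ventilation, and no allele, strain, sex or dose is given for them. The Control animals are labelled as 18 to 22 weeks old and given PBS. The study's design text speaks of recombinant human PBEF given into the airway, while a +/- label is usual for a heterozygous genotype, and the labels do not settle which of these PBEF+/- stands for. The VILI PBEF+/- animals are labelled as 8 to 12 weeks old and the VALI animals as 18 to 22 weeks old. The ventilated tidal volume is 40 ml/kg in the labels and 30 ml/kg in the design text. Nothing in the labels says that each array is a separate animal, so a p-value here measures the spread between arrays, which may be in part technical. Unless stated otherwise, limma took that spread from all 4 labelled groups, the ventilated ones included.

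PBEF, pre-B-cell colony-enhancing factor, is the product of Nampt. Inside cells it is the enzyme that turns nicotinamide into nicotinamide mononucleotide, the rate-limiting step of the salvage route to NAD, and outside cells it is known as a cytokine-like protein called visfatin or eNAMPT. It is known in the lung as a gene induced by mechanical stretch and inflammation.

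All values below are deposited log2 expression values of the probe set with the highest mean for each gene, so a difference of 1 is a 2-fold ratio. The 10th percentile of probe sets was about 2 on every array, and values of 2 to 3 are near the floor of these arrays. Lung defining markers were high on all 7 arrays. Sftpc, the surfactant protein of alveolar type II cells, read 15.55, 15.53 and 15.64 on the PBEF+/- arrays and 15.68, 15.64, 15.61 and 15.70 on the Control arrays. Scgb1a1, the secretory protein of club cells, lay at 16.02 to 16.08 on 6 of the 7 arrays and just under them in PBEF+/- replicate 2. Heart transcripts were present on every array too, with Myh6, the atrial and adult ventricular myosin chain, at 14.17, 13.44 and 13.23 in PBEF+/- and at 13.63, 13.61, 13.18 and 13.49 in Control.

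The 3 PBEF+/- arrays did not resemble each other. PBEF+/- replicate 1 had 103 of 11360 genes at least 1 away from the Control mean, replicate 2 had 919 and replicate 3 had 948, while each Control array had 91 to 308 genes at least 1 away from the mean of the other 3. Of the 919 genes of replicate 2, 692 were below Control. Across genes, PBEF+/- replicate 3 correlated with 6 of the 7 ventilated arrays at r = 0.978 to 0.991, with VALI replicate 4 at 0.936 and with the 4 Control arrays at 0.943 to 0.956, as a description of these arrays. Values in PBEF+/- replicate 3 are therefore given separately throughout.

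Nampt, the gene that the label names, did not separate the groups. It read 9.34, 9.21 and 10.71 in PBEF+/- lungs, against 10.21, 10.36, 10.21 and 9.95 in Control lungs. PBEF+/- replicates 1 and 2 lay below every Control array and PBEF+/- replicate 3 lay above every Control array. PBEF+/- averaged 9.75 ± 0.83 (SD, n = 3) and Control averaged 10.18 ± 0.17 (SD, n = 4), a difference of -0.43 ± 0.41 (standard error of the limma fit, adjusted p = 0.738). Without PBEF+/- replicate 3 the difference was -0.91 ± 0.39 (limma, adjusted p = 0.539).

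The other Nampt probe sets kept this order of the arrays. Probe set 1417190_at read 8.61, 8.53 and 10.33 in PBEF+/- and 9.65, 10.15, 10.11 and 9.91 in Control. Probe set 1448607_at read 5.16, 5.15 and 7.54 in PBEF+/- and 5.77, 7.0, 6.80 and 6.54 in Control. On all 3 probe sets PBEF+/- replicate 3 was the highest array of the 7. An exact two-sided permutation test over the 35 splits of the 7 arrays gave p = 0.343 for 1455320_at, the probe set given first, 0.229 for 1417190_at and 0.457 for 1448607_at, where the smallest p this design allows is 0.0286. PBEF+/- replicates 1 and 2 had a mean level 0.532, 0.382 and 0.386 times that of Control on 1455320_at, 1417190_at and 1448607_at. Without replicate 3, all 3 gave the smallest p that 15 splits allow, 0.0667 (exact, two-sided), so the design could not pass 0.05.

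**Figure D1:**
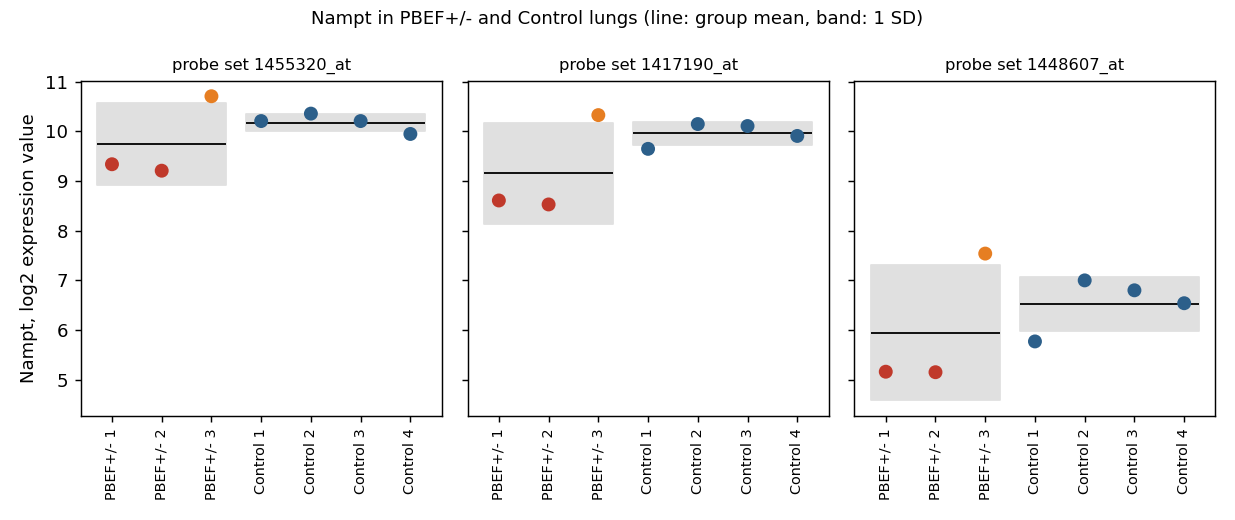
Log2 expression value (vertical axis) of the 3 Nampt probe sets on each PBEF+/- array (red, with replicate 3 in orange) and each Control array (blue), with the group mean as a line and 1 SD as a band. PBEF+/- replicates 1 and 2 are below all 4 Control arrays and replicate 3 is above them on each probe set.

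Of the 20 nearest genes tested on chromosome 12, 10 on each side of Nampt, 3 had PBEF+/- replicates 1 and 2 below every Control array (Ccdc71l, Atxn7l1 and Cbll1), where 8.54% of all genes tested did. The PBEF+/- and Control arrays did not overlap for 2 of the 20, Atxn7l1 and Pik3cg, against 5.84% of all genes. Differences of the 20 genes ran from -0.95 to 1.02. Pik3cg, a catalytic subunit of phosphoinositide 3-kinase, gave the 1.02, with 5.65, 5.38 and 4.89 in PBEF+/- and 4.30, 4.18, 4.63 and 4.05 in Control. Of the 12 other genes of NAD synthesis and use that were tested, 0 passed the test in either direction. Their median difference was -0.05, with a range of -0.23 to 0.42, against a median of -0.09 over all genes tested. Nmrk1, the nicotinamide riboside kinase, was the highest of them by difference, at 6.58, 6.94 and 6.89 in PBEF+/- and 6.53, 6.18, 5.94 and 6.89 in Control.

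No gene passed the test. With all arrays as labelled, limma called 0 of 11360 genes higher (0.0%) and 0 lower (0.0%) in PBEF+/- at an adjusted p under 0.05, and the smallest adjusted p was 0.593. At an unadjusted p under 0.05 there were 938 genes, 219 higher and 719 lower. Without PBEF+/- replicate 3 the calls were again 0 (0.0%), with 1005 genes at an unadjusted p under 0.05, of which 235 were higher and 770 lower. Only 418 genes with the same sign were in both unadjusted sets, which is 44.6% of the first and 41.6% of the second. Over the unventilated arrays alone without replicate 3, limma called 1 gene (0.0088%), BC018473, described further on. Other single arrays mattered too: without PBEF+/- replicate 1 the unadjusted count was 2031 (408 higher, 1623 lower), and without Control replicate 2 it was 492, with 0 calls in both.

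Genes were sorted by how far their difference rests on PBEF+/- replicate 3. In all, 139 of 11360 genes (1.22%) differed by at least 1 between group means, 84 higher (0.739%) and 55 lower (0.484%) in PBEF+/-. A gene was taken to depend on replicate 3 when the difference without it was under 0.5 in size or had the other sign. That held for 52 genes, 39 higher and 13 lower. A further 37 genes kept 0.5 to 1 (20 higher, 17 lower), and 50 genes kept at least 1 (25 higher, 25 lower). By the same measure 10 of the 139 genes depended on replicate 2 and 3 on replicate 1, and 76 depended on no single PBEF+/- array. Just inside the threshold, Fcgr4, an Fc receptor of myeloid cells, differed by 1.02 with all 3 arrays and by 0.48 without replicate 3. Just outside it, Slfn1, a member of the schlafen family, differed by 1.02 and by 0.51.

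**Figure D2:**
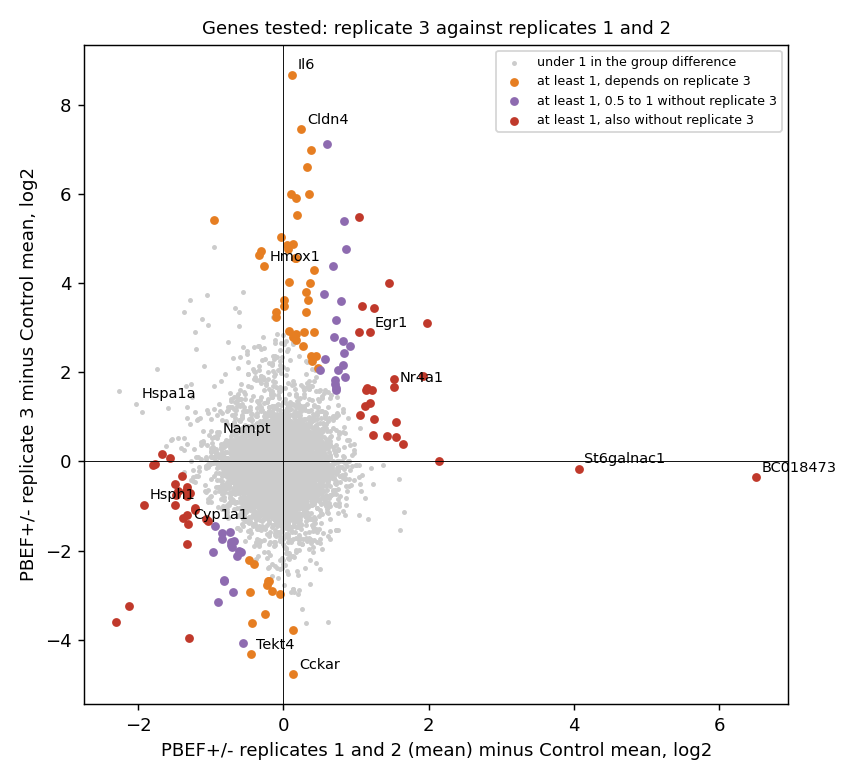
Each point is 1 of the 11360 genes tested, with the mean of PBEF+/- replicates 1 and 2 minus the Control mean on the horizontal axis and PBEF+/- replicate 3 minus the Control mean on the vertical axis, both in log2. The 52 orange genes lie along the vertical axis with Il6 at 8.67, while BC018473 and St6galnac1 lie far to the right near 0 on the vertical axis.

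Replicate 3 was singled out beforehand because its Il6 is at the level of ventilated lungs, so the dependence of Il6 on it was fixed by that choice and is given as a description. Il6, the cytokine of the acute-phase response, read 2.10, 2.56 and 10.87 in PBEF+/- and 2.09, 2.13, 2.15 and 2.45 in Control. Its value in replicate 3 lay among the 9.60 to 12.75 of 6 of the 7 ventilated arrays, of which VALI replicate 4 read 2.78. The Il6 difference was 2.97 with all arrays, the largest of the 39 higher dependent genes, and 0.12 without replicate 3. PBEF+/- replicates 1 and 2 were at or near the floor, like Control.

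Cldn4, a claudin of epithelial tight junctions, had the next largest dependent difference, with 3.14, 3.22 and 10.37 in PBEF+/- and 2.54, 3.20, 3.19 and 2.78 in Control. Mmp8, the collagenase of neutrophil granules, read 2.97, 3.84 and 9.68 in PBEF+/- and 2.91, 2.98, 3.41 and 2.98 in Control. Cxcl2, a chemokine that draws neutrophils, read 3.39, 2.49 and 8.68 in PBEF+/- and 2.59, 2.62, 3.40 and 2.44 in Control. In all of these, replicates 1 and 2 overlapped Control or came within 0.5 of its range, and replicate 3 stood at least 5 above the Control mean. Krtap17-1, a keratin-associated protein, and the transcript G530011O06Rik made up the 6 largest, with 10.36 and 10.65 in replicate 3 against 3.60 to 4.88 and 3.35 to 3.84 in Control.

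Most other dependent genes that were higher are given here by what they are known for. Ccl3 and Ccl2 are chemokines for monocytes and macrophages, Lif is a cytokine of the IL-6 family, and Ccr1, Cxcr2, Tlr2, Cd300lf and Fcgr4 are receptors of myeloid cells. Ereg is a ligand of the epidermal growth factor receptor, Adamts4 cleaves proteoglycans, Has1 makes hyaluronan, Tnfaip6 binds it, and Bdkrb1 is the inducible bradykinin receptor. Mt2 is a metallothionein, Srxn1 repairs peroxiredoxins, Ch25h makes 25-hydroxycholesterol, Aldh1a3 makes retinoic acid and Dio2 activates thyroid hormone. Prss22, a serine protease of airways, Apold1, an early response gene of endothelium, Arid5a, which stabilises Il6 mRNA, Noct, a clock-linked phosphatase, Doc2b, a calcium sensor of exocytosis, Acta1, the skeletal muscle actin, and Mid1, a ubiquitin ligase, were also among them.

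Their arrays were not all alike. Ereg read 3.51, 3.55 and 8.59 in PBEF+/- and 3.45, 3.50, 3.77 and 3.51 in Control. Has1 read 2.23, 2.36 and 8.66 in PBEF+/- and 2.32, 3.61, 4.05 and 3.03 in Control, so replicate 1 was just under Control, replicate 2 was within it and replicate 3 was above it. Mid1 was less clear-cut, with 8.84, 8.39 and 12.10 in PBEF+/- and 9.59, 8.95, 8.93 and 5.75 in Control, where Control replicate 4 stood low. Replicate 3 lay within the range of the 7 ventilated arrays for 44 of the 52 dependent genes, 36 of the 39 higher and 8 of the 13 lower. The numbers were the same over the 6 ventilated arrays other than VALI replicate 4. The other genes that differed by at least 1 were similar in this respect: replicate 3 lay in the range of the 7 ventilated arrays for 41 of the 50 genes that kept at least 1 and for 29 of the 37 that kept 0.5 to 1. Il6, Cldn4, Mmp8 and Ereg were below the array medians on the Control arrays and PBEF+/- replicates 1 and 2. They passed the filter only through replicate 3 and the ventilated arrays, so for such genes the match is partly built in. The share over all genes tested was not counted.

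Of 10 cytokine and chemokine genes tested, 0 passed the test and 6 depended on replicate 3, Il6 included. Their median difference was 1.40 with all arrays, 0.09 in replicates 1 and 2 and 3.39 in replicate 3, where all genes tested had medians of -0.09, -0.06 and -0.12. Il6, by which replicate 3 was singled out, is in these figures. Without Il6 the other 9 genes had a median difference of 1.16 with all arrays, from -0.56 to 2.09. Il6, Cxcl2, Ccl3 and Ccl2 were below the array medians on the Control arrays and PBEF+/- replicates 1 and 2. They passed the filter only through replicate 3 and the ventilated arrays, so the higher medians are partly built in. Il1a, Tnf, Ccl4, Csf3 and Il11, also on the list, did not pass it. Cxcl1, another neutrophil chemokine, read 5.97, 5.65 and 9.67 in PBEF+/- and 5.75, 5.83, 4.89 and 5.06 in Control. Il1b, the cytokine made by activated macrophages and neutrophils, did not depend on replicate 3 alone: it read 6.93, 9.72 and 10.51 in PBEF+/- and 5.85, 7.24, 7.52 and 7.72 in Control, with replicates 2 and 3 above every Control array.

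Genes induced downstream of IL-6 and NF-kB showed the same split. The 15 tested members had a median of 0.75 with all arrays, -0.02 in replicates 1 and 2 and 2.49 in replicate 3, with 0 passing the test and 1 counted as dependent. Il1r2, the decoy receptor of interleukin 1, was that gene, at 3.11, 3.50 and 9.19 in PBEF+/- and 2.69, 3.38, 3.95 and 2.79 in Control. Il1r2 too passed the filter only through replicate 3 and the ventilated arrays. Socs3, the feedback inhibitor of cytokine receptors, read 10.47, 10.89 and 13.61 in PBEF+/- and 10.69, 10.53, 10.66 and 11.16 in Control, a difference under 1. Hp, the acute-phase haemoglobin scavenger haptoglobin, went the other way, with 13.83, 13.27 and 13.51 in PBEF+/- below 13.98, 14.16, 14.15 and 13.96 in Control.

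Targets of NRF2, the factor that drives the oxidative stress response, were near Control in replicates 1 and 2 and higher in replicate 3. Of 11 tested, 0 passed the test and 4 depended on replicate 3. Their medians were -0.04 in replicates 1 and 2 and 2.26 in replicate 3. Hmox1, the haem-degrading oxygenase, read 7.24, 7.57 and 12.05 in PBEF+/- and 7.51, 7.61, 7.57 and 8.00 in Control. Slc7a11, the cystine importer, read 3.06, 3.18 and 7.51 in PBEF+/- and 2.99, 3.07, 3.09 and 2.69 in Control. Slc7a11 passed the filter only through replicate 3 and the ventilated arrays. All 11 members were higher than the Control mean in replicate 3, and 4 of 11 were in the mean of replicates 1 and 2. Of all 11360 genes tested, 4109 were in replicate 3 and 4436 in the mean of replicates 1 and 2.

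The 6 neutrophil markers tested were also highest in replicate 3 among the 7 arrays. S100a8, a calcium-binding protein abundant in neutrophils, read 10.64, 12.63 and 14.66 in PBEF+/- and 10.23, 11.60, 11.83 and 11.60 in Control. S100a9, its partner, read 9.27, 11.90 and 13.86 in PBEF+/- and 9.01, 10.54, 10.73 and 10.71 in Control. The 6 markers averaged 6.86, 8.43 and 10.96 in PBEF+/- and 6.73, 7.48, 7.86 and 7.83 in Control. Of the 6, 4 depended on replicate 3 (S100a8, S100a9, Cxcr2 and Mmp8) and 0 passed the test. Those 4 and the average were above every Control array in replicate 2 too, by less than in replicate 3. Mmp8 passed the filter only through replicate 3 and the ventilated arrays. All 6 were above the floor in replicate 3, at 8.43 to 14.66. In whole lung, more cells of a type and more RNA per cell cannot be told apart, and the part of neutrophils in the other differences was not tested.

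Dependent genes that were lower included genes of cilia and of epithelial surfaces. Tekt4, a tektin of ciliary microtubules, read 7.32, 6.10 and 2.84 in PBEF+/- and 6.57, 7.39, 7.50 and 7.18 in Control. Cckar, the cholecystokinin A receptor, read 11.40, 11.35 and 6.47 in PBEF+/- and 11.20, 11.13, 11.09 and 11.54 in Control. Cckar in replicate 3 lay among the 6.06 to 7.67 of the same 6 ventilated arrays, and VALI replicate 4 read 11.20. Muc16, a large membrane mucin, read 6.10, 5.86 and 3.51 in PBEF+/- and 6.31, 6.55, 6.97 and 5.93 in Control. Rnf186, a RING-type ubiquitin ligase, and Fam216b were the other named genes of this kind, at 4.93 and 5.39 in replicate 3 against 8.31 to 8.72 and 8.54 to 9.0 in Control. The others were Dnaaf1 and Ccdc151, which assemble the dynein arms of cilia, Tppp, a microtubule protein, Kif26b, a kinesin-like protein, Cdon, a co-receptor of hedgehog signals, Rarb, a retinoic acid receptor, the transcript 2810410L24Rik, and Eif2s3y. Dnaaf1 read 6.80, 5.91 and 3.61 in PBEF+/- and 6.21, 6.69, 6.61 and 6.54 in Control, with replicate 3 the lowest array and replicate 2 also under Control.

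The 6 ciliated cell markers had a median of -0.82 in replicate 3 and -0.03 in replicates 1 and 2, with 0 passing the test. Foxj1, the master factor of motile cilia, was lower in replicate 2 as well, with 10.06, 8.09 and 8.32 in PBEF+/- and 10.34, 10.02, 10.13 and 9.18 in Control. Other markers differed from it: 2 of the 6 had replicates 1 and 2 both above every Control array (4.48% of all genes). In 0 of the 6 were both below (8.54% of all genes). Dynlrb2 read 12.18, 11.90 and 11.02 in PBEF+/- and 11.86, 11.89, 11.86 and 11.74 in Control. The 3 mesothelial markers had medians of -1.53 in replicate 3 and -0.59 in replicates 1 and 2. Upk3b, the uroplakin of mesothelium, read 10.61, 9.85 and 8.72 in PBEF+/- and 10.34, 10.93, 11.40 and 10.76 in Control.

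Other genes stood outside Control on all 3 PBEF+/- arrays. There were 157 genes above all 4 Control arrays (1.38%) and 506 below them (4.45%), which together is 5.84% of the genes tested. With quantile normalization the split was 217 above and 331 below, and the median difference of all genes was -0.05 in place of -0.09. The excess of lower genes thus shrank under that scaling.

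Egr1 had the largest difference among the 157 genes that were above. It is a zinc finger factor induced within minutes of a stimulus, and it read 12.08, 12.00 and 13.75 in PBEF+/- and 11.17, 10.31, 10.65 and 11.29 in Control, a difference of 1.76 ± 0.36 (limma, adjusted p = 0.593). Nr4a1, an orphan nuclear receptor induced in the same way, read 11.70, 11.72 and 11.85 in PBEF+/- and 11.02, 9.28, 9.53 and 10.87 in Control. Both kept a difference of at least 1 without replicate 3, at 1.19 and 1.53. Ccn1, a matricellular protein induced by stretch and growth factors, read 12.17, 12.14 and 13.20 in PBEF+/- and 11.37, 10.90, 11.29 and 11.64 in Control. None of these passed the test across all genes.

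The full list of 22 immediate early genes was near Control in replicates 1 and 2. Its median was 0.09 there, 1.43 in replicate 3 and 0.40 with all arrays, with 0 passing the test. Of the 22, 2 (Egr1 and Nr4a1) were above Control on all 3 arrays, where 1.38% of all genes were. Egr3, a relative of Egr1, read 8.44, 9.63 and 10.15 in PBEF+/- and 7.86, 5.41, 6.01 and 8.93 in Control, so replicate 1 fell within the Control range. Fosb, a FOS family partner of JUN, read 5.69, 4.90 and 9.18 in PBEF+/- and 5.24, 3.17, 4.00 and 5.27 in Control. Fosl1, another FOS family member, was near the floor except for 3.33 in replicate 2 and 9.21 in replicate 3. Egr1, Nr4a1, Egr3 and Fosb were all lower in Control replicates 2 and 3 than in Control replicates 1 and 4.

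Cdc6, which loads the replicative helicase onto DNA, had the smallest p among the higher genes, with 5.69, 5.36 and 6.01 in PBEF+/- and 4.77, 3.89, 4.08 and 4.73 in Control. Its difference was 1.31 ± 0.25 (limma, adjusted p = 0.593). The 8 other replication and cycle genes tested had a median of -0.08 and ran from -0.25 to 0.07. None of the 8 was above Control on all 3 arrays (1.38% of all genes), and 1, Ccnd1, was below (4.45%). Selplg, the leukocyte ligand of P-selectin, read 9.76, 9.74 and 9.97 in PBEF+/- and 9.41, 9.44, 9.44 and 9.33 in Control. Clca1, a secreted protein of mucous cells, read 5.65, 6.16 and 6.23 in PBEF+/- and 2.5, 4.95, 5.03 and 5.07 in Control. Kcne4, an accessory subunit of potassium channels, read 8.02, 8.39 and 10.31 in PBEF+/- and 7.55, 7.33, 7.59 and 7.55 in Control.

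Among the 506 genes below Control on all 3 PBEF+/- arrays, Zfp319, a zinc finger protein, had the smallest p of all genes, with 8.01, 7.75 and 7.85 in PBEF+/- and 8.35, 8.56, 8.68 and 8.59 in Control. Its difference was -0.68 ± 0.12 (limma, adjusted p = 0.593) and -0.67 without replicate 3. Cyp1a1, the cytochrome induced through the aryl hydrocarbon receptor, read 6.55, 6.92 and 6.64 in PBEF+/- and 7.82, 7.96, 8.13 and 8.28 in Control. Its difference was -1.35 ± 0.35, and -1.31 without replicate 3. The ventilated arrays read 5.82 to 7.75 for Cyp1a1, all below the lowest Control array.

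Reg3g, a lectin that kills bacteria at epithelial surfaces, read 9.52, 9.27 and 9.53 in PBEF+/- and 10.26, 11.12, 11.19 and 9.89 in Control. Sstr4, a somatostatin receptor, read 5.63, 5.62 and 5.11 in PBEF+/- and 6.16, 7.50, 6.78 and 7.38 in Control. Aqp4, a water channel of airway cells, read 6.43, 5.27 and 4.02 in PBEF+/- and 6.49, 6.51, 6.95 and 6.71 in Control, with replicate 1 just under the lowest Control array. Among the smallest p values were also Tmem106b, a lysosomal membrane protein, Tecpr1, which tethers autophagosomes to lysosomes, and Abhd5, the activator of triglyceride lipase. Their differences were -0.34, -0.53 and -0.50, and without replicate 3 they were -0.30, -0.57 and -0.46.

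**Figure D3:**
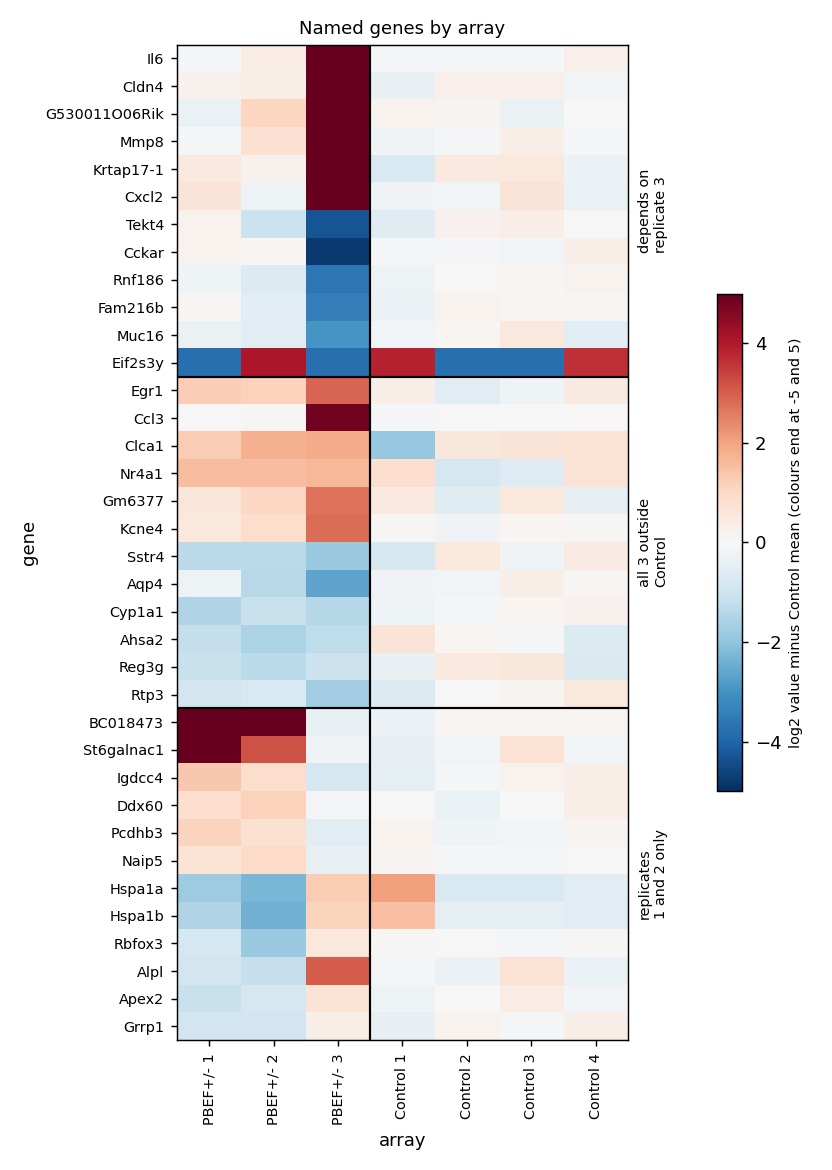
Log2 value minus the Control mean for the named genes (rows) on each PBEF+/- and Control array (columns), in 3 blocks of 12 genes. The upper block is coloured mainly on replicate 3, apart from Eif2s3y, the middle block on all 3 PBEF+/- arrays, Ccl3 mainly on replicate 3, and the lower block on replicates 1 and 2, with replicate 3 on the other side of the Control mean (Alpl, Hspa1a and Hspa1b most).

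A further set differed from Control in PBEF+/- replicates 1 and 2 while replicate 3 did not follow. Replicates 1 and 2 were both above all Control arrays for 509 genes (4.48%), and replicate 3 was not above them all for 352 of these. Both were below for 970 genes (8.54%), and replicate 3 was not below for 464 of these. Both were outside by at least 0.5, with replicate 3 on the other side of the Control mean, for 7 higher and 8 lower genes. BC018473, a long noncoding RNA of chromosome 11, read 9.51, 8.30 and 2.03 in PBEF+/- and 2.08, 2.48, 2.49 and 2.49 in Control. St6galnac1, a sialyltransferase of mucin-type sugars and the next annotated gene, with 0 genes between, read 7.32, 5.54 and 2.20 in PBEF+/- and 1.93, 2.22, 3.07 and 2.21 in Control. Both were at the floor in replicate 3 and in Control.

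The ventilated arrays held the same 2 levels of BC018473. It read 2.55, 2.57 and 11.04 in VILI PBEF+/- and 9.59, 9.84, 10.60 and 9.59 in VALI, so no array of the 14 fell between 2.57 and 8.30. St6galnac1 read 2.09, 2.22 and 7.93 in VILI PBEF+/- and 6.98, 7.29, 6.80 and 6.94 in VALI. The 2 genes thus sorted the 14 arrays in the same way, across the lines of the labelled groups. The BC018473 difference was 4.23 ± 1.92 with all arrays (limma, adjusted p = 0.598). Over the unventilated arrays without replicate 3 it was 6.51 ± 0.34 (limma, adjusted p = 0.00284), the call given above. In the limma fit of the 4 groups without replicate 3 it was 6.51 with an adjusted p of 0.537. The fit of the 4 groups takes its spread from the ventilated arrays too, and VILI PBEF+/- held both levels of BC018473.

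Among the other named genes of this kind, differences were smaller. Ddx60, a helicase of antiviral sensing, read 6.79, 7.07 and 5.85 in PBEF+/- and 5.92, 5.61, 5.94 and 6.26 in Control. Naip5, the sensor of bacterial flagellin, read 6.51, 6.75 and 5.43 in PBEF+/- and 5.96, 5.76, 5.71 and 5.81 in Control. Of the interferon response list, which does not hold Ddx60, 0 of 9 tested members passed the test, with medians of 0.13 in replicates 1 and 2 and -0.03 in replicate 3.

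Heat shock proteins had the lowest median of the 15 pathway lists in PBEF+/- replicates 1 and 2. These chaperones bind unfolded proteins, and their genes are switched on by heat shock factor 1, which binds repeats of nGAAn in alternating orientation. Of 14 tested, 0 passed the test, 13 were below the Control mean in replicates 1 and 2, and 8 had both replicates below all 4 Control arrays, where 970 of all genes (8.54%) did. Of all 11360 genes tested, 4436 were above the Control mean in replicates 1 and 2. The median of the list was -0.61 in replicates 1 and 2 and 0.00 in replicate 3, against -0.06 and -0.12 over all genes tested.

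The promoters of 4 members described next are shown because they carry such repeats. They run from 250 bases before to 50 bases after the annotated start in the RefSeq tables of build GRCm38.p6, 5′ to 3′ along the gene. Capitals mark GAANNTTC and TTCNNGAA, the paired forms of the repeat, where N is any base, and overlapping matches run together.
Hspa1b (chr17:34959189-34959488, - strand): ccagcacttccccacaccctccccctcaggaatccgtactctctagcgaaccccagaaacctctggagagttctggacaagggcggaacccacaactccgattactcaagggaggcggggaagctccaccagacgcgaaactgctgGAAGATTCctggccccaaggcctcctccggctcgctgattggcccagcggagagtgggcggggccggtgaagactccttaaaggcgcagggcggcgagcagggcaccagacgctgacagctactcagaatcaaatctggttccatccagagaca
Hsph1 (chr5:149636287-149636586, - strand): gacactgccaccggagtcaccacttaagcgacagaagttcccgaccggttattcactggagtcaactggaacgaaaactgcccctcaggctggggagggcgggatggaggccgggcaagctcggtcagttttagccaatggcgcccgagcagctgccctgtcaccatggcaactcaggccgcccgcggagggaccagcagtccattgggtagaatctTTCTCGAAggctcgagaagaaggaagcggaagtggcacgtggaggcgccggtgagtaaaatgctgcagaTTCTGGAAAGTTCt
Hspb1 (chr5:135887669-135887968, + strand): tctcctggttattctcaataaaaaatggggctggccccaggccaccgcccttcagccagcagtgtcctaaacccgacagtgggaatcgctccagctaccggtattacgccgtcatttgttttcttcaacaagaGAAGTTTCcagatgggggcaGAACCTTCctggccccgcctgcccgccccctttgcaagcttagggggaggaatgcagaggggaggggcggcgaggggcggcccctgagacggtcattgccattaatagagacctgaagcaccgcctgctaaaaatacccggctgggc
Hspe1 (chr1:55087898-55088197, + strand): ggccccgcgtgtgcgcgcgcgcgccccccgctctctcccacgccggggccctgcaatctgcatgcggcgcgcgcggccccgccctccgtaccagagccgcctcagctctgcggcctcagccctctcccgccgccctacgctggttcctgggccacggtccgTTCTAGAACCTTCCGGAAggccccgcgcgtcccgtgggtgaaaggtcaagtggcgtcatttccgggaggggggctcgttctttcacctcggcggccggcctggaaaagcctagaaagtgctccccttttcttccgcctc
Both motifs read the same on either strand. Of the 14 list members, 11 had a promoter in the table. GAANNTTC was in 9 of those 11, against 9.04% of 27025 genes with a promoter, and TTCNNGAA was in 4 of 11, against 9.60%. The 9 count both Hspa1a and Hspa1b, whose promoters are nearly identical, so they are not 9 separate sequences. A match describes the letters and is not evidence of binding.

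Hspa1b, an inducible HSP70, read 11.20, 10.30 and 13.79 in PBEF+/- and 14.20, 12.21, 12.23 and 12.10 in Control. Hspa1a, its near-identical neighbour, read 8.04, 7.53 and 11.10 in PBEF+/- and 11.88, 9.07, 9.04 and 9.27 in Control. Replicates 1 and 2 lay below every Control array, and replicate 3 lay between Control replicate 1 and the rest. The promoters of these 2 genes were identical at 296 of 300 bases. Probe sets of the 2 genes may share signal, since the coding parts are known to be nearly identical. Their differences without replicate 3 were -1.94 and -2.03 (limma, adjusted p = 0.537 and 0.545).

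Hsph1, an HSP110 chaperone that recharges HSP70, read 10.91, 9.77 and 11.29 in PBEF+/- and 12.86, 12.51, 12.47 and 11.20 in Control, a difference of -1.60 ± 0.59 (limma, adjusted p = 0.593). Dnaja1, a J-domain partner of HSP70, read 12.39, 12.21 and 12.75 in PBEF+/- and 13.53, 13.14, 13.08 and 12.92 in Control. Dnajb1, another J-domain partner, read 10.62, 10.82 and 11.04 in PBEF+/- and 12.31, 11.04, 11.09 and 11.40 in Control. Both were below Control on all 3 PBEF+/- arrays, Dnajb1 in replicate 3 by less than the decimals shown.

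Among the smaller differences, Hspe1, the mitochondrial co-chaperonin, read 11.54, 11.53 and 11.71 in PBEF+/- and 12.12, 11.92, 12.07 and 11.70 in Control. Hspb1, a small heat shock protein, read 12.65, 11.60 and 13.24 in PBEF+/- and 13.58, 13.15, 13.19 and 12.59 in Control, so replicate 2 alone lay below Control. Cryab, a small heat shock protein of muscle and lens, was the 1 member above the Control mean in replicates 1 and 2, by 0.22. Ahsa2, an activator of the HSP90 ATPase that is not on the list, read 7.83, 7.45 and 7.75 in PBEF+/- and 9.65, 9.13, 8.98 and 8.32 in Control. The ventilated arrays spread widely for Hspa1b, from 12.33 to 15.36, with none as low as PBEF+/- replicates 1 and 2.

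**Figure D4:**
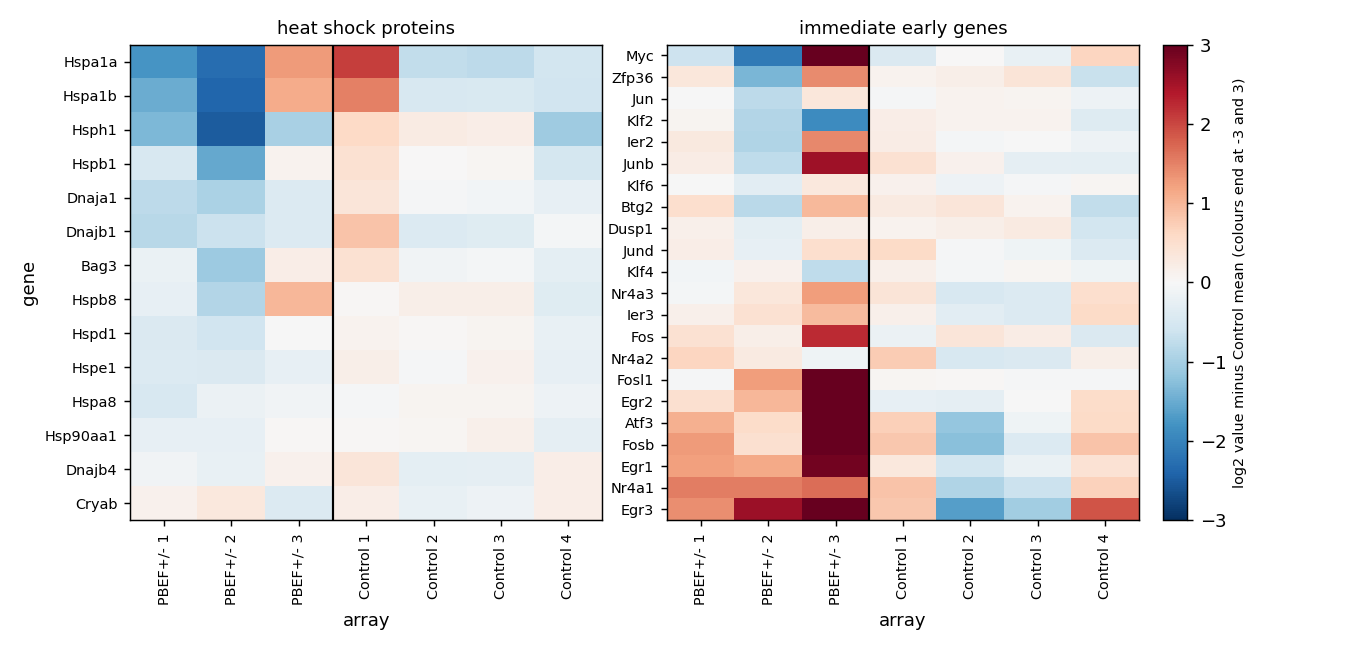
Log2 value minus the Control mean for 14 heat shock proteins (left) and 22 immediate early genes (right) on each PBEF+/- and Control array, sorted by the mean of PBEF+/- replicates 1 and 2. Hspa1a and Hspa1b are low in replicates 1 and 2 and high in replicate 3 and Control replicate 1, while Egr1 and Nr4a1 are high on all 3 PBEF+/- arrays.

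In the remaining pathway lists 0 members passed the test. Stretch and growth factor response genes had medians of -0.13 in replicates 1 and 2 and 0.68 in replicate 3. Glucocorticoid response genes had -0.26 and 0.80, but the Control arrays were split. The glucocorticoid list averaged 11.73, 11.02 and 12.34 in PBEF+/- and 11.39, 12.31, 12.24 and 11.02 in Control. Replicate 3 was thus level with Control replicates 2 and 3. Endoplasmic reticulum stress genes had medians of -0.22 in replicates 1 and 2 and 0.17 in replicate 3. Atf4, the factor of the integrated stress response, was higher on 2 of the 3 arrays, at 11.34, 12.68 and 12.33 in PBEF+/- and 11.45, 11.21, 11.09 and 11.37 in Control. Extracellular matrix genes had medians of -0.40 and 0.40, and endothelial barrier genes -0.14 and -0.21. F3, the tissue factor that starts coagulation, depended on replicate 3, with 11.11, 11.56 and 13.33 in PBEF+/- and 10.96, 10.89, 11.04 and 10.95 in Control. Sox18, an endothelial transcription factor, was below Control on all 3 arrays, at 11.35, 11.20 and 10.72 in PBEF+/- and 11.51, 12.05, 11.85 and 11.89 in Control. It was the 1 of 8 endothelial markers tested that was (4.45% of all genes). The 8 markers had medians of -0.23 in replicates 1 and 2 and 0.01 in replicate 3. Cdh5, another of them, read 12.94, 11.75 and 13.18 in PBEF+/- and 12.97, 13.09, 13.05 and 12.58 in Control.

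**Figure D5:**
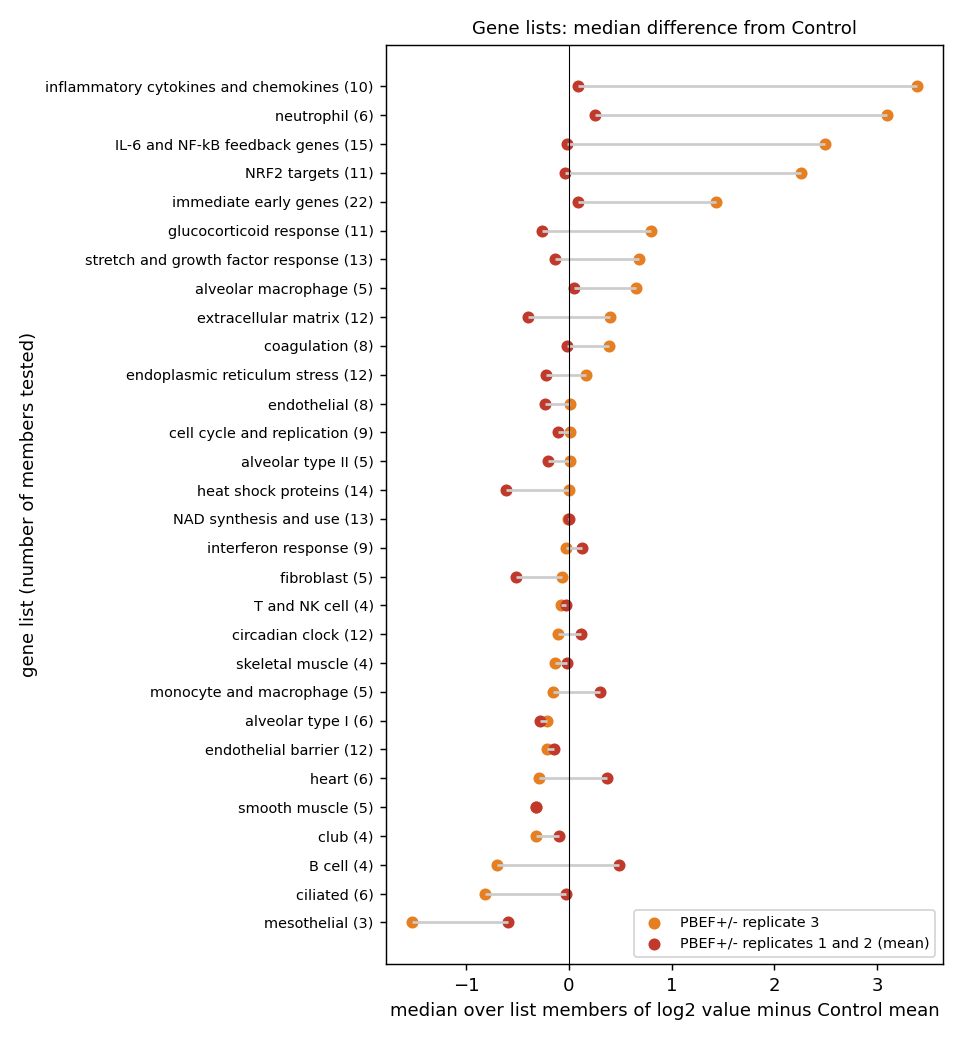
Median over the tested members of each gene list (rows, number tested in brackets) of the log2 value minus the Control mean, for PBEF+/- replicate 3 (orange) and for the mean of PBEF+/- replicates 1 and 2 (red). The cytokine list, Il6 included, stands at 3.39 in replicate 3 and 0.09 in replicates 1 and 2. It holds genes that passed the filter only through replicate 3 and the ventilated arrays. Heat shock proteins stand at 0.00 and -0.61.

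Markers of other tissues and states differed between arrays of the same group. The 6 heart markers averaged 12.44, 12.35 and 11.56 in PBEF+/- and 11.89, 12.03, 11.58 and 12.02 in Control, with all 6 above the Control mean in replicates 1 and 2 and 0 of 6 in replicate 3. Of all 11360 genes tested, 4436 and 4109 were above it. Adipoq, the hormone of fat cells, read 10.54, 7.33 and 9.28 in PBEF+/- and 8.75, 9.62, 12.68 and 8.06 in Control. Alas2, the haem enzyme of red cell precursors, read 3.02, 7.03 and 3.92 in PBEF+/- and 6.79, 6.78, 8.34 and 6.72 in Control. The part of these tissues in the gene differences was not tested.

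Sex-linked transcripts split both groups, and the labels give no sex. Xist, the RNA of the inactive X chromosome, read 13.83, 2.63 and 13.58 in PBEF+/- and 2.55, 13.73, 13.33 and 2.56 in Control, and Eif2s3y, a Y-linked translation factor, had the opposite pattern. Both are counted among the 52 dependent genes, Xist as higher and Eif2s3y as lower. Within each group the arrays low in Xist were the arrays high in Eif2s3y. With Xist as a covariate, limma again called 0 genes, with 1304 at an unadjusted p under 0.05.

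Arrays of the same group also differed in clock and steroid genes. Arntl, the clock activator BMAL1, read 3.48, 4.08 and 4.35 in PBEF+/- and 3.43, 6.63, 6.53 and 3.67 in Control. Dbp, a clock output factor, read 12.34, 12.80 and 10.14 in PBEF+/- and 12.15, 10.31, 10.39 and 12.81 in Control. Fkbp5, a glucocorticoid-induced immunophilin, read 10.42, 8.54 and 13.18 in PBEF+/- and 9.97, 11.98, 12.04 and 8.72 in Control. Control replicates 2 and 3 shared high Xist, high Arntl and high Fkbp5, and Control replicates 1 and 4 shared the low values, so these patterns cannot be told apart within Control.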

How the data were processed

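Lung RNA of 14 arrays was read from the deposited series table, whose values are log2 expression values of the authors for 45101 probe sets. MAS5 and GCRMA are named for it per the submitters' processing notes, with no version and no role for each. Array medians ran from 4.60 to 4.75, and no further scaling was applied. Such background-corrected values hold many probe sets near a floor, where differences between arrays carry little information. Gene symbols came from the platform annotation: 34958 probe sets carried 1 symbol, 932 carried several and 9211 were unnamed. The probe set with the highest mean over the arrays stood for a gene, and a gene was tested if that probe set exceeded the array median on at least 3 of 14 arrays, which left 11360 of 18194 genes. The number of arrays limits the precision, and no scan dates were at hand.

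The 4 labelled groups were fitted to all 14 arrays with limma 3.58.1 in R 4.3.3, using moderated variances that follow a trend with mean level. The contrast was PBEF+/- minus Control, p-values were adjusted over all genes tested by the Benjamini-Hochberg method, and calls needed an adjusted p under 0.05. Errors after differences are standard errors of that fit, and errors after means are standard deviations. Alternatives changed the arrays, the filter, the probe set rule, the scaling, the moderation, a covariate and a replicate block.

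The genes named are Nampt, 6 genes in each direction by smallest p, by largest difference among those that depend on PBEF+/- replicate 3, by largest difference among those with all 3 arrays outside Control, and by largest difference among those where only replicates 1 and 2 were outside Control by at least 0.5 with replicate 3 on the other side of the Control mean, plus up to 4 members of each of 34 lists. Some other genes were chosen after their values were seen: Pik3cg, Ccdc71l, Atxn7l1, Cbll1, Fcgr4, Slfn1, Hp, Dnajb1, Hspe1, Hspb1, Cryab, Dbp, Fkbp5, the remaining genes that depend on replicate 3 and those named in the closing observations. The comparison, the lists and the rules were chosen with earlier results of these data known. Promoter sequences are from RefSeq tables of build GRCm38.p6. The array annotation's build is not given in the sources used here. Figures were drawn with matplotlib 3.10.9.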

Additional observations from a re-analysis of the deposited data

Results flagged for a closer look

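Of the genes named in the report, 107 were examined, which does not cover every gene named. Of these 107, 16 had 1 Control array set far from the other 3. The measure is the gap to the nearest other array over the whole range. In these 16 it was past Dixon's critical value for 4 arrays. Chance alone flags about 1 in 20 of independent genes not chosen from the same data. The named genes were chosen in part by these Control values and some vary together, so the 16 cannot be read against that rate. Control replicate 1 was the odd array for 8 of them. It was low for S100a8 (ratio 0.853), S100a9 (0.887), Fcgr4 (0.851), Clca1 (0.952) and Abhd5 (0.830), the first 3 being genes of neutrophils and other myeloid cells, and high for Hspa1a (0.917) and Hspa1b (0.938). Clca1 read 2.5 there against 4.95 to 5.07 on the other Control arrays, and Hspa1a read 11.88 against 9.04 to 9.27. The eighth gene of that array was BC018473 (0.977), at 2.08 against 2.48 to 2.49, where all 4 arrays are near the floor. Control replicate 4 was high for Il6 (0.836), at 2.45 against 2.09 to 2.15, and Control replicate 3 was high for Mmp8 (0.853), at 3.41 against 2.91 to 2.98, again near the floor. Control replicate 3 was also high for Dio2 (0.920), at 2.51 against 1.97 to 2.01, for Cxcr2 (0.851), at 6.17 against 5.69 to 5.77, and for Alas2 (0.954), at 8.34 against 6.72 to 6.79. Control replicate 2 was low for Kcne4 (0.839), at 7.33 against 7.55 to 7.59, and for Apold1 (0.919), at 4.21 against 5.01 to 5.08. Control replicate 4 was low for Mid1 (0.8291), at 5.75 against 8.93 to 9.59. The PBEF+/- group has 3 arrays and was not examined in this way.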

How the results depend on the processing

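Across 19 alternatives, 0 genes were called lower and 0 higher, except 1 higher gene (BC018473, 6.51) over the unventilated arrays without PBEF+/- replicate 3. At an unadjusted p under 0.05 the count was 938 as labelled and 492 to 2031 over the alternatives, with 492 without Control replicate 2, 584 without Control replicate 3, 564 over the 7 unventilated arrays and 2031 without PBEF+/- replicate 1. The Nampt difference stayed below 0, from -0.91 to -0.16 over the arrays left out in turn. Genes that depend on PBEF+/- replicate 3 numbered 52, and 17 at a difference of at least 1.5. Of 1997 values for 106 other named genes, 63 in 20 genes had the other sign. Leaving out each array in turn gave -2.33 to 0.14 for Cckar, -3.78 to 0.14 for Eif2s3y, -0.08 to 1.49 for Socs3, -0.26 to 2.14 for Hmox1, -0.14 to 0.33 for Myh6, -1.47 to 0.24 for Adipoq, -0.14 to 0.22 for Cryab, -0.17 to 1.16 for Dbp, -1.20 to 1.12 for Fkbp5, -0.03 to 2.51 for Ereg, -0.10 to 1.75 for Ccl2, -0.31 to 2.32 for Adamts4, -0.96 to 2.26 for Has1, -0.10 to 1.58 for Dio2, -1.03 to 1.06 for Alpl and -0.34 to 2.23 for Doc2b. In both further fits without PBEF+/- replicate 3 (unventilated arrays only, and without VALI replicate 4 too) the difference was 0.14 for Cckar, 0.14 for Eif2s3y, -0.08 for Socs3, -0.26 for Hmox1, -0.03 for Ereg, -0.10 for Ccl2, -0.31 for Adamts4, -0.96 for Has1, -0.10 for Dio2, -0.34 for Doc2b, -1.03 for Alpl and -1.20 for Fkbp5. Array weights gave -0.22 for S100a9, -0.09 for S100a8, -0.38 for Has1, -0.40 for Alpl and -1.03 for Fkbp5. The mean of all probe sets gave -0.06 for Cryab, 0.04 for Cbll1 and -0.03 for Fkbp5. With Xist as a covariate, Eif2s3y was at 0.21 and Fkbp5 at -0.49. The cause of these changes was not tested, beyond the arrays left out.

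Deviations of same-numbered PBEF+/- and Control arrays correlated at 0.17, -0.28 and 0.24 across genes. These values are too few to show whether replicate numbers pair the arrays. With the replicate block, 0 genes were called, 683 had an unadjusted p under 0.05, Nampt differed by -0.59, and the sign turned for Eif2s3y (0.42), Xist (-0.32) and Fkbp5 (-0.68). With 3 PBEF+/- arrays that differ widely from each other, a difference that was not called here may still exist, and genes near the floor cannot be ranked.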

Other observations

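The 8 genes whose pattern over the 14 arrays was most like that of BC018473 are given here as a description with no test, chosen after the values were seen. Pearson's r with BC018473 was 0.989 for St6galnac1, 0.900 for Lsm12, an RNA-binding protein, -0.886 for Meox1, a homeobox factor, 0.843 for St6galnac2, a second sialyltransferase, and -0.831 for Dusp3, a phosphatase. It was 0.825 for Pik3cg, -0.808 for Cd300lg, a receptor of capillary endothelium, and -0.790 for Cemip2, a hyaluronidase of the cell surface. Of these 8 genes, 6 are on chromosome 11, its own chromosome, as are 14 of the 50 most alike by the size of r (28%), where 8.52% of genes tested with a chromosome are. Meox1, Dusp3, Cd300lg and Lsm12 lie within a run of 12 protein-coding genes. The points share their arrays, and these r values rest largely on the 2 levels of BC018473.

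PBEF+/- replicate 2 held low values that neither other PBEF+/- array nor any Control array shared. Otub1, a deubiquitinase, read 7.49, 4.29 and 7.54 in PBEF+/- and 7.35, 7.92, 7.53 and 7.02 in Control. Arf5, a small GTPase of the Golgi, read 8.31, 5.30 and 7.87 in PBEF+/- and 7.85, 8.37, 8.30 and 8.22 in Control. Slc35c1, the GDP-fucose transporter, read 8.02, 5.24 and 8.48 in PBEF+/- and 8.49, 8.40, 8.45 and 7.87 in Control. The immunoglobulin transcript Igk was high there instead, at 4.68, 11.33 and 8.37 in PBEF+/- and 6.94, 5.58, 9.49 and 5.13 in Control.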
